A study of Mus musculus with 3 samples.

Results

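The cells described here were the Sox9-high cells of the limb mesenchyme of the mouse forelimb bud at embryonic stage E10.5. They were chosen from the droplet single-cell counts as cells of the authors' cluster 0 with at least 3 unique molecular identifiers (UMIs) of Sox9 and none of Shh. A UMI stands for 1 captured RNA molecule. The rule found 2708 cells, which was 17.7% (exact Clopper-Pearson 95% interval 17.1 to 18.3) of the 15325 cluster 0 cells of that library and part of 18957 cells in the library and 43950 in the series. Another 3 cells met the Sox9 threshold but held a Shh UMI and were left out.

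Forelimb buds came from wild-type embryos in 3 libraries, 1 reaction for each strain and stage. B6_E10.5 and B6_E9.5 came from the strain c57bl6.J at E10.5 and E9.5, and 129_E9.5 from 129S6.sv embryos at E9.5. No allele or treatment separated the groups, and the sources used here do not say how many embryos were pooled. At E10.5 the reference was cluster 0 cells of the same library with no Sox9 UMI and at least 2000 UMIs in all. Both groups at E10.5 thus come from 1 library, so their differences carry intervals of counting error alone, with no replicates and no test. The library totals were 119942504 UMIs in B6_E10.5, 124388358 in B6_E9.5 and 93029510 in 129_E9.5.

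Sox9 is the transcription factor that mesenchymal cells need to become cartilage. In the limb bud it marks the cells that gather into condensations, the first templates of the bones, and with its partners Sox5 and Sox6 it drives genes of the cartilage matrix such as Col2a1. Cells at the distal rim of the bud stay undifferentiated under FGF signals from the apical ectodermal ridge and under WNT signals, and they express Msx1. Proximal cells, near the trunk, express Meis1 and Meis2.

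Of the Sox9-high cells, 1045 held exactly 3 Sox9 UMIs, 625 held 4, 960 held 5 to 9 and 78 held 10 or more. Any Sox9 UMI was found in 45.6% of cluster 0 cells (44.8 to 46.4, median 5422 UMIs per cell) and in 8.73% of erythroid cells (6.15 to 11.9, median 14608 UMIs), which should lack the gene. Whether the UMIs in erythroid cells came from free RNA or from droplets with several cells was not tested. The threshold of 3 UMIs was passed by 1.995% of erythroid cells (0.865 to 3.89). A deeper cell passes a UMI threshold more easily, so each Sox9-high cell was paired with the Sox9 0 cell nearest in total UMIs, within 5%. A partner was found for 2663 cells and not for 45. Both matched groups had a median of 6302 UMIs, and the medians of mitochondrial UMIs were 3.80% in Sox9-high cells and 3.70% in Sox9 0 cells.

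The label of chondrogenic mesenchyme was checked on its markers. Sox9 itself was the selecting gene, at 642 UMIs per 1000000 UMIs summed over the group (CPM) against 0 in Sox9 0 cells. Among the other markers, Col2a1, the main collagen of cartilage, stood at 128 CPM (exact Poisson 95% interval 123 to 134) in Sox9-high cells and 19.5 CPM (17.6 to 21.6) in Sox9 0 cells, a ratio of 6.57 (5.89 to 7.35). Col9a1, a chain of the type IX collagen that sits on collagen II fibrils, stood at 159 CPM against 61.03 CPM, a ratio of 2.60 (2.43 to 2.79). Wwp2, a ubiquitin ligase gene that hosts a cartilage microRNA in an intron, stood at 117 CPM against 30.9 CPM, a ratio of 3.78 (3.45 to 4.15). All 3 were higher in Sox9-high cells with intervals that did not overlap, but their presence cell by cell was partial. A Col2a1 UMI was seen in 50.4% of Sox9-high cells (48.5 to 52.3), 10.6% of Sox9 0 cells and 4.49% of erythroid cells. With each cell thinned to 2000 UMIs these shares were 24.6%, 4.43% and 0.512%. For Wwp2 the shares were 43.1%, 18.0% and 11.7%, or 20.9%, 5.93% and 1.53% after thinning. None of Col2a1, Col9a1 and Wwp2 was seen in 18.6% of Sox9-high cells (17.1 to 20.1) against 55.6% of Sox9 0 cells (53.7 to 57.5). All 3 were seen in 19.8% (18.3 to 21.3) against 2.10% (1.59 to 2.72).

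On mm10, the annotation places Sox9 on chromosome 11 (112782224 to 112787760, plus strand), Col2a1 on chromosome 15 (97975602 to 98004695, minus strand) and Col9a1 on chromosome 1 (24177610 to 24252684, plus strand). Wwp2 lies on chromosome 8 (107436365 to 107558595, plus strand), Sox5 on chromosome 6 (143828425 to 144781977, minus strand) and Sox6 on chromosome 7 (115470872 to 116038796, minus strand). The reads come from the 3′ ends of transcripts, so isoforms and starts were not separated. RefSeq (GRCm38.p6) held promoter windows for Col9a1, Wwp2 and Sox5, shown here because they belong to 3 cartilage genes that were higher together. Each is the 250 bases before the RefSeq start, on the gene's strand. Capitals mark ACAAAG or ACAATG, the core letters bound by Sox proteins, searched on both strands.
Col9a1, chr1:24177360-24177609, plus strand: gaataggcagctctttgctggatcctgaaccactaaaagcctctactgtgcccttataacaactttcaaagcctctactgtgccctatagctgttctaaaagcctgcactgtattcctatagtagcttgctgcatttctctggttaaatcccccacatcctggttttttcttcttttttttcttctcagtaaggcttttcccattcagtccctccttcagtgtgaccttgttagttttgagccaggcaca
Wwp2, chr8:107436120-107436369, plus strand: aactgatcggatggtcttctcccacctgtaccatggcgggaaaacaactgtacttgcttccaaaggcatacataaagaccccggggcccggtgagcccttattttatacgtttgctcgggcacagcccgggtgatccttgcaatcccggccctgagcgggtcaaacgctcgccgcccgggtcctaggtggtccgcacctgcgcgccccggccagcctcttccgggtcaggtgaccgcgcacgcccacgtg
Sox5, chr6:143947107-143947356, minus strand: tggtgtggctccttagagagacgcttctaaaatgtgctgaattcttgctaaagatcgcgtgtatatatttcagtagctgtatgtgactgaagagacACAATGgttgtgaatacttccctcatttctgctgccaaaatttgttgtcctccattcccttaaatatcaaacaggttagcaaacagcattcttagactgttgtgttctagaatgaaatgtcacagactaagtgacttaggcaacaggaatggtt
The Sox5 window holds 1 match, 154 bases before the start, and the Col9a1 and Wwp2 windows hold 0. This Sox5 start is an inner one of the long gene. Over all RefSeq promoter windows of this length, 25.2% (8292 of 32851 starts) held either motif, against 16 of 56 starts (28.6%) of genes at least 2-fold higher in Sox9-high cells and 8 of 47 starts (17.0%) of genes at least 2-fold lower. The 56 and 47 starts belong to 30 of the 42 higher genes and 37 of the 52 lower genes, so some genes count with several starts and others have none. A match in these letters is a description and not a binding site.

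The microRNA hosted by Wwp2 is shown with its seed, bases 2 to 8, in capitals. It lies on the strand of its host at chr8:107551288-107551308 (GRCm38.p6).
mmu-miR-140-3p: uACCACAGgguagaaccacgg
The counts are of the polyadenylated Wwp2 transcript, and the microRNA itself was not measured.

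Low genes were set aside by a minimum of 20 CPM and 20 UMIs in the group where a gene was higher. Of the 6019 that remained, 42 genes (0.698%) were at least 2-fold higher in Sox9-high cells and 52 (0.864%) at least 2-fold lower, with intervals excluding 1. The median gene was at a log2 ratio of -0.03. Sox9 and Shh were left out of the counts, and the Sox9 counts that split the cells make every other difference a description of that split. The largest ratios also belonged to genes outside the cartilage lists. Sorbs2, an adaptor of the actin cytoskeleton, stood at 22.7 CPM (20.6 to 24.98) in Sox9-high cells and 3.77 CPM (2.94 to 4.75) in Sox9 0 cells, a ratio of 6.03. Pmp22, a small membrane protein best known from myelin, stood at 41.9 CPM against 7.43 CPM, a ratio of 5.64. Fam181b, a gene of little known function, stood at 72.5 CPM against 14.5 CPM, a ratio of 4.98. All 3 were named for the size of their ratios, among genes whose interval had to exclude 1. Their separation from the counting interval of the Sox9 0 cells follows from that choice.

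**Figure D1:**
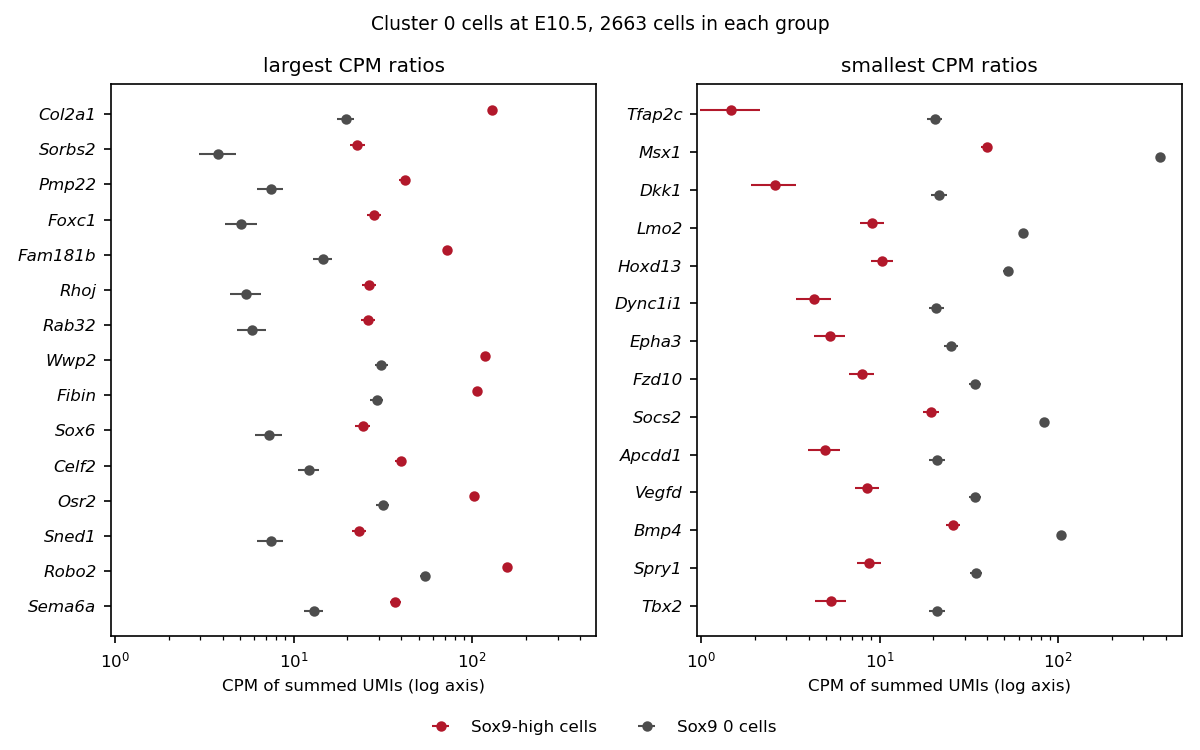
Levels of genes with the largest (left) and the smallest (right) CPM ratios, in 2663 Sox9-high cells (red) and 2663 Sox9 0 cells (grey) of B6_E10.5, as CPM of summed UMIs on a log axis with exact Poisson 95% intervals. Col2a1 stands at 128 CPM in Sox9-high cells and 19.5 CPM in Sox9 0 cells, and Msx1 at 39.9 CPM and 371 CPM.

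The transcription factors of the skeletal programme were among the higher genes. Of 10 tested members of a list of 20, Sox5, Sox6, Wwp2, Foxc1 and Shox2 were at least 2-fold higher and Pax1 at least 2-fold lower, and the median log2 ratio was 0.83. Sox5 and Sox6, which bind DNA beside Sox9 in cartilage genes, stood at 68.5 and 24.3 CPM in Sox9-high cells against 25.6 and 7.27 CPM in Sox9 0 cells, ratios of 2.67 (2.41 to 2.97) and 3.34 (2.76 to 4.08). Foxc1, a forkhead factor of skeletal and other mesenchyme, stood at 28.2 CPM against 5.09 CPM, a ratio of 5.53 (4.44 to 6.95). Shox2, a homeobox gene needed for the humerus, stood at 446 CPM against 206 CPM, a ratio of 2.16. Pax1, a gene of the shoulder girdle, went the other way, at 21.3 CPM against 45.4 CPM, a ratio of 0.469 (0.415 to 0.528), which did not hold against Sox9 0 cells without Msx1. Runx2, the regulator of later bone formation, was under the filter, at 12.9 CPM (11.4 to 14.7) against 8.17 CPM (6.93 to 9.57).

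The cartilage matrix was only in part detectable. Of the 23 genes listed, 19 had a row and 5 passed the filter; Col2a1 and Col9a1 were the 2 at least 2-fold higher, and the list median was a log2 ratio of 0.81. The other chains of collagen IX, Col9a2 and Col9a3, lay under the filter but were also higher, at 10.4 and 12.3 CPM in Sox9-high cells against 1.22 and 2.23 CPM in Sox9 0 cells. Cnmd, which encodes the cartilage protein chondromodulin, stood at 4.65 CPM (3.73 to 5.73) against 0.371 CPM (0.149 to 0.765). Fgfr3, the FGF receptor of growing cartilage, stood at 6.34 CPM against 1.96 CPM.

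Genes linked to condensation, joints and soft connective tissue were mixed. Of 12 tested condensation and adhesion genes, Vcan, a matrix proteoglycan, and Robo2, a guidance receptor, were at least 2-fold higher, while the receptors Epha3 and Nrp2 were at least 2-fold lower. Robo2 stood at 157 CPM in Sox9-high cells against 54.4 CPM in Sox9 0 cells, and Epha3 at 5.28 CPM against 25.3 CPM. Osr2 and Osr1, odd-skipped factors that mark connective tissue and joint regions, stood on opposite sides. Osr2 stood at 102 CPM against 31.5 CPM, a ratio of 3.23 (2.95 to 3.55), and Osr1 at 23.9 CPM against 66.5 CPM, a ratio of 0.360 (0.322 to 0.401). Creb5, Jun and Dcx were the other higher members among 7 tested joint genes. Scx, the tendon factor, stood at 106 CPM against 55.8 CPM, a ratio of 1.90 (1.76 to 2.05), and 0 of 4 tested tendon genes reached 2-fold.

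On the other side stood the genes of the undifferentiated distal mesenchyme. Of 16 tested members, 8 were at least 2-fold lower, where 0.864% of all tested genes were, and 0 higher. Their median log2 ratio was -1.07. Against Sox9 0 cells without Msx1, described below, these calls did not hold. Msx1, a homeobox gene of undifferentiated mesenchyme, stood at 39.9 CPM (37.1 to 42.9) in Sox9-high cells and 371 CPM (363 to 380.0) in Sox9 0 cells, a ratio of 0.108 (0.0996 to 0.116). Lhx2, a LIM-homeobox factor that acts downstream of FGF, stood at 35.5 CPM against 113 CPM, a ratio of 0.315. Tfap2c, an AP-2 factor, stood at 1.48 CPM against 20.3 CPM, a ratio of 0.0728 (0.0477 to 0.107). An Msx1 UMI was found in 11.3% of Sox9-high cells (10.2 to 12.6), 47.2% of Sox9 0 cells (45.3 to 49.1) and 4.74% of erythroid cells, or 4.63%, 31.4% and 0.767% after thinning. The late distal Hox genes lay lower too, with Hoxd12 and Hoxd13 the 2 of 8 tested 5′ Hox genes past 2-fold. Hoxd13, a gene of the future hand, stood at 10.4 CPM against 52.6 CPM, a ratio of 0.197 (0.168 to 0.230), and its paralog Hoxa13, under the filter, at 1.96 CPM against 10.3 CPM.

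A minority of the tested FGF, WNT and BMP pathway genes were at least 2-fold lower, where 0.864% of all tested genes were. The list medians were log2 ratios of -0.37, -0.38 and -0.33. Among 9 tested FGF genes, Spry1, Dusp6 and Etv4, all induced by FGF, were at least 2-fold lower and 0 were higher. Dusp6, a phosphatase that dampens the pathway, stood at 78.0 CPM in Sox9-high cells and 183 CPM in Sox9 0 cells, a ratio of 0.427 (0.402 to 0.454). Among 16 tested WNT genes, 6 were at least 2-fold lower: Axin2, Nkd1 and Nkd2, which are feedback inhibitors, Lef1 and Tcf7, which are the nuclear effectors, and the secreted antagonist Dkk1. Sfrp1, another secreted antagonist, was the 1 at least 2-fold higher, at 91.5 CPM against 37.7 CPM. In the BMP list the ligand Bmp4, its antagonist Grem1 and the targets Msx1 and Msx2 were at least 2-fold lower of 14 tested, with 0 higher. Bmp4 stood at 25.9 CPM against 104 CPM, a ratio of 0.250 (0.226 to 0.276). Bmpr1b, the BMP receptor of condensations, was under the filter, at 7.19 CPM (6.03 to 8.50) against 3.34 CPM (2.57 to 4.28).

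Proximal genes stood higher by smaller amounts. Of 14 tested, Shox2, Tbx15 and Tbx18 were at least 2-fold higher, and 9 were at least 1.5-fold higher, where 2.38% of all tested genes were. Meis1 stood at 99.8 CPM in Sox9-high cells against 58.1 CPM in Sox9 0 cells, a ratio of 1.72 (1.59 to 1.85), and Meis2 at 266 CPM against 201 CPM, a ratio of 1.32 (1.27 to 1.38). Along the other limb axes the split was small. Hand2, a posterior factor, stood at 80.8 CPM against 80.7 CPM (ratio 1.00, 0.932 to 1.08) and Lmx1b, a dorsal factor, at 21.8 CPM against 24.5 CPM (ratio 0.888, 0.776 to 1.02). Prrx1, carried by all limb mesenchyme, stood at 538 CPM against 494 CPM.

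Growth and metabolism also differed. Cdkn1c, an inhibitor of the cell cycle, stood at 1270.3 CPM (1254 to 1286) in Sox9-high cells and 607 CPM (596 to 618) in Sox9 0 cells, a ratio of 2.09. None of the 18 tested S phase or 18 tested G2 and M phase genes reached 2-fold in either direction, and the list medians were log2 ratios of -0.34 and 0.14. Glycolysis genes had a median of -0.52, with Hk2 and Ldha at least 2-fold lower and 6 of 13 at least 1.5-fold lower, where 2.24% of all tested genes were. Ldha, lactate dehydrogenase A, stood at 412 CPM against 826 CPM, while Gapdh stood at 1888 CPM against 1773 CPM. Of 12 housekeeping genes, 0 reached 2-fold.

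Levels followed the Sox9 count in steps. In cluster 0 cells of 4000 to 10000 UMIs, Col2a1 stood at 23.0, 65.6, 96.8, 116, 128, 162 and 217 CPM in cells with 0, 1, 2, 3, 4, 5 to 9 and 10 or more Sox9 UMIs, that is in 4229, 1520, 959, 668, 398, 667 and 40 cells. Msx1 stood at 295, 91.3, 40.6, 31.6, 21.7, 11.0 and 10.3 CPM in the same classes. Across the threshold, cells with 3 Sox9 UMIs had Col2a1 at 116 CPM and Msx1 at 31.6 CPM, and cells with 2 had 96.8 and 40.6 CPM, so that neither gene jumped at the threshold. Sox6 stood highest in the top class, at 51.7 CPM (28.9 to 85.2) against 7.05 CPM (6.11 to 8.10) at 0 Sox9 UMIs. Scx followed another course: 61.7 CPM at 0 Sox9 UMIs, 113 CPM at 3, 100.6 CPM at 5 to 9 and 62.0 CPM (36.8 to 98.0) at 10 or more. Meis1 likewise stood at 66.7, 115, 94.6 and 65.5 CPM in those classes, and Prrx1 varied between 501.3 and 548 CPM over all 7.

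**Figure D2:**
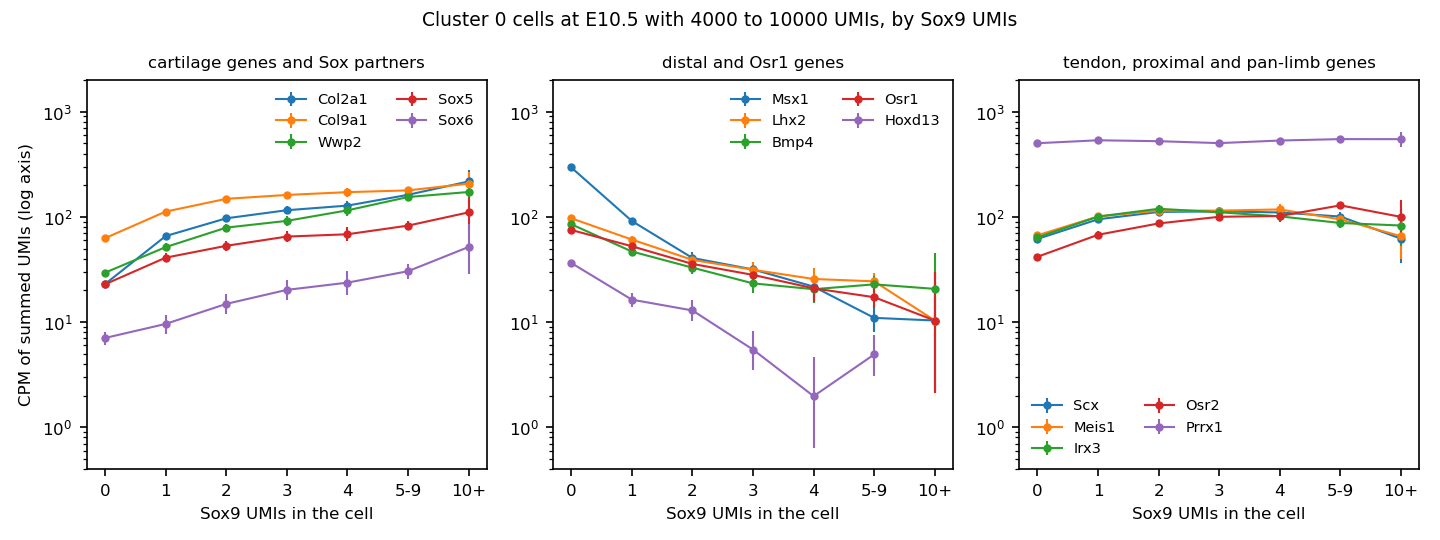
CPM of summed UMIs (log axis, exact Poisson 95% intervals) in cluster 0 cells of B6_E10.5 with 4000 to 10000 UMIs, classed by Sox9 UMIs. Classes with 0 UMIs of a gene have no point. Col2a1 stands at 23.0 CPM in the lowest class and 217 CPM in the highest, Msx1 at 295 and 10.3 CPM, and Scx is at its highest value, 113 CPM, at 3 Sox9 UMIs.

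Within the Sox9-high cells, Col2a1 varied together with other cartilage genes. Cells with at least 3 Col2a1 UMIs (258 cells, median 6946 UMIs) had Wwp2 at 245 CPM (224 to 268), Cnmd at 11.8 CPM and Runx2 at 23.2 CPM. Cells with 0 Col2a1 UMIs (1346 cells, median 6366 UMIs) had Wwp2 at 71.7 CPM (66.4 to 77.3), Cnmd at 2.03 CPM and Runx2 at 9.53 CPM. Sox9 itself differed little between them, at 679 against 614 CPM. The tendon factor Scx stood at 131 CPM (115 to 147) in cells with at least 3 Col2a1 UMIs, 114 CPM with 1 to 2 and 94.2 CPM (88.1 to 100.6) with 0. Classed the other way, by at least 3, 1 to 2 and 0 Scx UMIs (207, 971 and 1530 cells, medians of 9356, 6566 and 5715 UMIs), the Sox9-high cells had Col2a1 at 128, 129 and 128 CPM. Their Osr1 levels were 58.9, 27.5 and 13.9 CPM, and Sox9 itself stood at 499.7, 610 and 699.5 CPM. The 126 Sox9-high cells with a Hoxa13 or Hoxd13 UMI were deeper (median 10436 against 6152 UMIs in the other 2582). In them Col2a1 stood at 53.1 CPM (41.6 to 66.8) against 134 CPM (129 to 139.9) in the others, Wwp2 at 56.0 against 122 CPM and Msx1 at 102 against 36.2 CPM. Sox9 itself was also lower in them, at 407 CPM against 663 CPM, so the cartilage genes were not compared at equal Sox9. These classes were cut after earlier results were known and rest on counts of a few UMIs, so they are ranges and not cell types.

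Sox9-high cells were also set side by side by their summed Meis1 and Meis2 UMIs: 985 cells had at least 3 (median 6778 UMIs) and 991 had 0 (median 6029 UMIs). Of 6021 genes, 81 (1.35%) were at least 2-fold higher in the Meis-high cells and 29 (0.482%) at least 2-fold lower, leaving Meis1 and Meis2 out. Creb5, a bZIP factor of joint tissue, stood at 106 CPM in Meis-high and 3.20 CPM in Meis 0 cells, a ratio of 33.3 (21.6 to 54.0). Gsc, a homeobox gene of the proximal bud, stood at 241 CPM against 9.45 CPM, a ratio of 25.5 (19.8 to 33.4). Pax1 stood at 43.1 CPM against 1.83 CPM. Meis 0 cells held little of these 3 genes. Irx3, a proximal homeobox gene, stood at 179 CPM against 15.4 CPM. Gdf5, a growth factor of forming joints, stood at 13.5 CPM (11.0 to 16.3) against 1.52 CPM (0.731 to 2.80), and Ptn, a growth factor of cartilage and other tissues, at 1631 against 340.3 CPM. Hoxa11 and Hoxd11, which pattern the forearm, stood at 16.2 and 64.4 CPM against 57.7 and 203 CPM, and Osr2 at 47.1 CPM against 162 CPM, a ratio of 0.291 (0.257 to 0.328). Members of the distal and BMP lists went both ways. Msx2 stood at 59.7 CPM in Meis-high cells against 8.23 CPM, Msx1 at 48.7 CPM against 36.1 CPM and Bmp4 at 37.3 CPM against 15.7 CPM. Dusp6 and Sall3 of the distal list were at least 2-fold lower in Meis-high cells, at 48.8 and 12.0 CPM against 107.7 and 46.2 CPM. Cartilage genes differed less: Col2a1 stood at 143 CPM against 109 CPM and Wwp2 at 130.0 CPM against 105.4 CPM. Sox9 stood at 583 CPM in Meis-high and 688 CPM in Meis 0 cells.

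**Figure D3:**
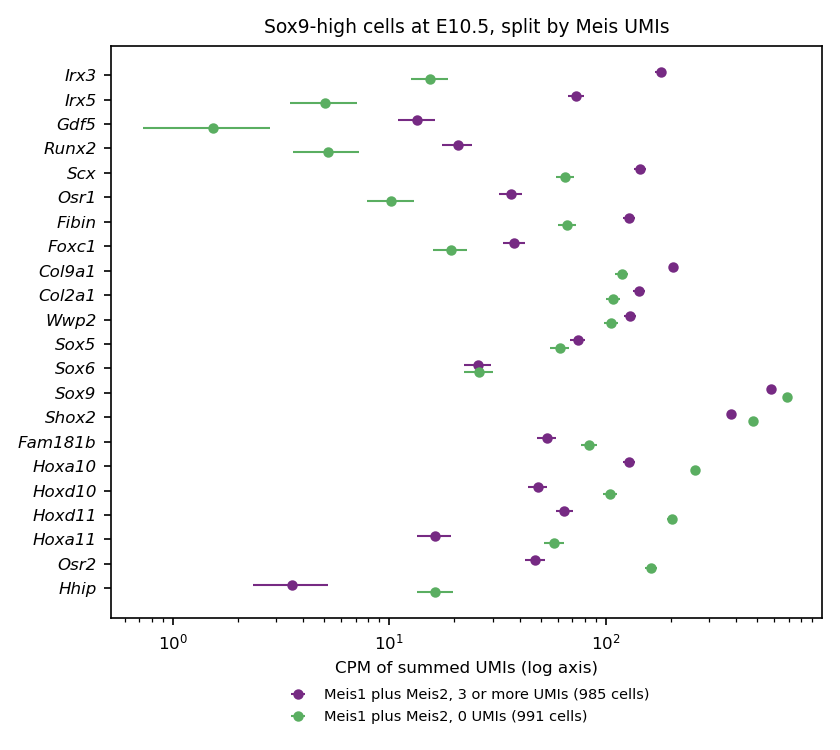
CPM of summed UMIs (log axis, exact Poisson 95% intervals) in Sox9-high cells of B6_E10.5 with at least 3 summed Meis1 and Meis2 UMIs (985 cells) and with 0 (991 cells). Irx3 stands at 179 CPM and 15.4 CPM, Osr2 at 47.1 CPM and 162 CPM, while Col2a1 stands at 143 CPM and 109 CPM.

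Sox9 0 cells are a mixture, and many of them are distal. When the reference was drawn from Sox9 0 cells without an Msx1 UMI (2430 pairs, a choice made after the data were seen), 26 genes were at least 2-fold higher in Sox9-high cells, 23 of them among the 42, and 24 at least 2-fold lower, 13 of them among the 52. The cartilage genes stayed higher: Col2a1 stood at 139 CPM against 32.0 CPM (ratio 4.35, 3.94 to 4.81), Sox6 at a ratio of 4.07, Sox5 at 3.63 and Wwp2 at 3.57. Shox2 (ratio 1.38), Osr2 (1.501) and Scx (1.08, 1.01 to 1.16) no longer reached 2-fold or stood near 1. Osr1 was at 22.1 CPM in Sox9-high cells against 126 CPM in this reference, a ratio of 0.175 (0.156 to 0.196), and Epha3 at a ratio of 0.127. Lhx2 was at 30.1 CPM against 32.0 CPM, with an interval of the ratio (0.826 to 1.07) that includes 1. Of the pathway genes at least 2-fold lower against all Sox9 0 cells, Dusp6 (ratio 0.769), Spry1 (0.696), Etv4 (0.578), Tcf7 (0.546), Lef1 (0.574) and Nkd1 (0.511) were no longer 2-fold lower, and the interval of Msx2 (0.906, 0.798 to 1.03) included 1. Bmp4 (0.387), Grem1 (0.278), Axin2 (0.415) and Nkd2 (0.438) stayed at least 2-fold lower. Dkk1 (0.166) was under the filter with this reference. Of the other distal genes, Mycn (0.534) was no longer 2-fold lower, and Tfap2c (0.157) and Sall1 (0.504) were under the filter. The distal genes at least 2-fold lower against all Sox9 0 cells were thus not called with this reference, which was chosen on Msx1. Lhx9, also of the distal list, went from a ratio of 0.613 to 1.56 (1.46 to 1.66). Meis2 turned to the other side of 1, at a ratio of 0.904 (0.867 to 0.942). Pax1 did so too, at 19.9 CPM against 16.8 CPM, a ratio of 1.18 (1.00 to 1.40).

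The same rule in the E9.5 libraries found 142 of 9678 cluster 0 cells of B6_E9.5 (1.47%, 1.24 to 1.73) and 120 of 9233 of 129_E9.5 (1.30%, 1.08 to 1.55), with medians of 19504.5 and 8504 UMIs. Up to 5 Sox9 0 cells were matched to each on total UMIs (710 and 600 cells). These 2 libraries allowed the only test, edgeR's quasi-likelihood test on 4 summed profiles with library as a term. Of 10073 genes, 328 (3.26%) rose and 327 (3.25%) fell at an adjusted p under 0.05. The fit had 1 residual degree of freedom and took its spread from all genes jointly (infinite prior degrees of freedom, common dispersion 0.0019). Each p-value thus rests on that shared spread and not on the gene's own spread between these 2 libraries. The 2 libraries also differ in strain. DESeq2 on the same sums called 36 and 33 genes, all shared.

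Of the 42 genes higher at E10.5, 37 entered this fit, 17 rose and 0 fell (median log2 change 0.59). Of the 52 lower genes, 46 entered, 30 fell and 0 rose (median -0.69). Col2a1 stood at 8.24 CPM in B6_E9.5 and 20.1 CPM in 129_E9.5 in Sox9-high cells, against 3.30 and 2.93 CPM in Sox9 0 cells. It rose by a log2 change of 1.89 ± 0.32 (SE, edgeR adjusted p = 3.7e-07, higher in 2 of 2 libraries), which DESeq2 did not call (adjusted p = 0.140; 5.77e-09 to 1 over the alternatives). Its level in Sox9-high cells was low next to the 128 CPM of E10.5. Fibin, a secreted factor of the lateral plate and limb, stood at 30.2 and 46.7 CPM against 3.14 and 5.13 CPM and rose by 3.22 ± 0.22 (SE, edgeR adjusted p = 1.09e-42). The Sox partners and the other cartilage markers were different. Wwp2 stood at 16.1 and 30.2 CPM in Sox9-high cells against 13.7 and 25.3 CPM in Sox9 0 cells (log2 change 0.23 ± 0.20, edgeR adjusted p = 0.608). Sox5 stood at 11.4 and 21.1 CPM against 9.58 and 18.7 CPM, and Sox6 at 19.2 and 7.32 CPM against 17.0 and 11.7 CPM. Neither they nor Col9a1 (log2 change 0.59 ± 0.25, edgeR adjusted p = 0.154) passed the test, and whether their difference changed between stages was not tested. The threshold of 3 UMIs also took cells with a smaller share of Sox9 at E9.5. Their median was 3 Sox9 UMIs in both libraries, at medians of 19504.5 and 8504 UMIs, against 4 at a median of 6263.5 UMIs at E10.5. The 4 chondrogenic markers with Sox9 included summed to 241 and 449 CPM at E9.5 and 1046 CPM at E10.5.

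**Figure D4:**
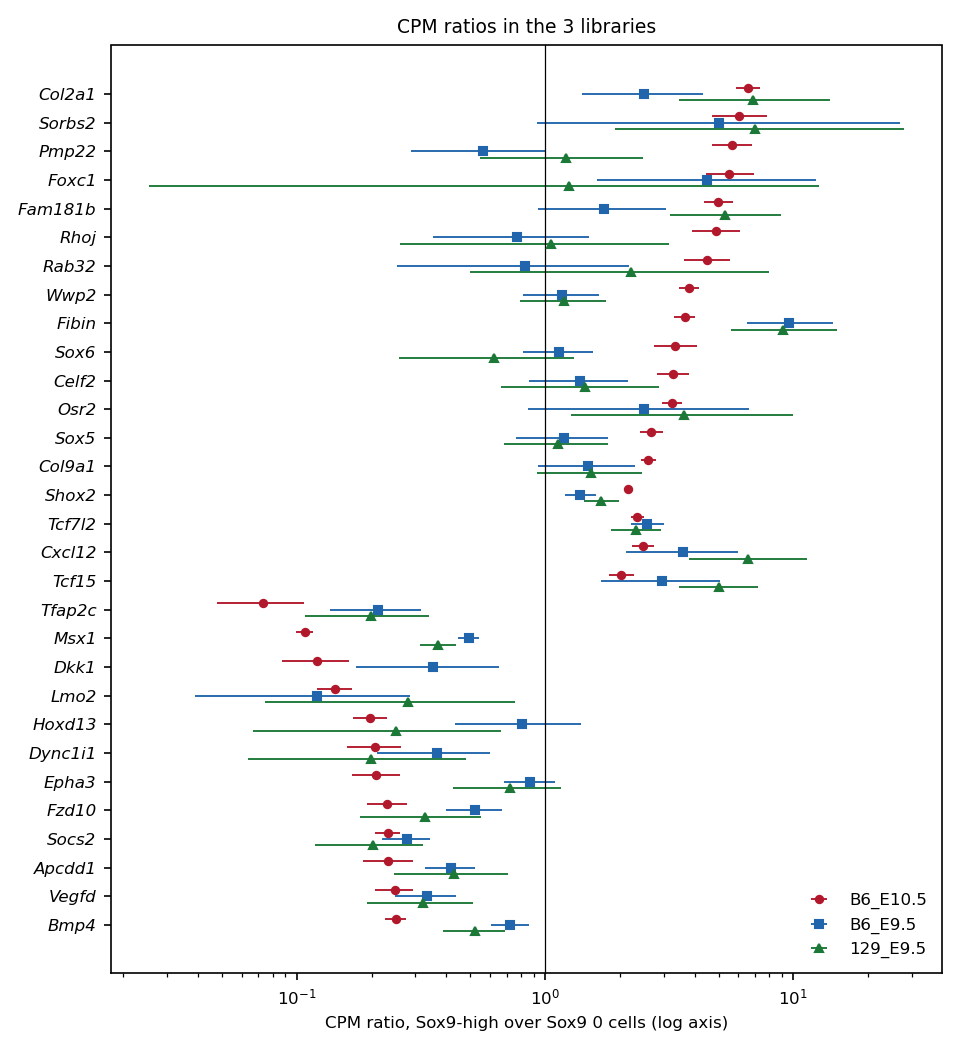
CPM ratios of Sox9-high over Sox9 0 cells in B6_E10.5, B6_E9.5 and 129_E9.5 (log axis, exact conditional 95% intervals). Libraries with 0 UMIs on either side, or at most 3 on both, have no point. Fibin lies above 1 and Msx1 below 1 in all 3 libraries, while Wwp2 has ratios of 3.78 in B6_E10.5, 1.17 in B6_E9.5 and 1.20 in 129_E9.5. The same Sox9 threshold took cells with a smaller share of Sox9 UMIs in the E9.5 libraries.

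Proximal and distal genes also moved at E9.5, where edgeR called 3.26% of all tested genes as rising and 3.25% as falling. Of 15 tested proximal genes 11 rose and 0 fell, with a median log2 change of 0.59 where the median of all genes was 0.01. Emx2, a homeobox gene of the shoulder region, stood at 46.3 and 72.3 CPM in Sox9-high cells against 6.59 and 9.34 CPM in Sox9 0 cells (log2 change 2.86 ± 0.18, SE, edgeR adjusted p = 1.19e-54). Meis1, Meis2 and Irx3 rose by 0.95, 0.95 and 1.21. Of 17 tested distal genes 12 fell and 0 rose, and of 9 tested 5′ Hox genes 8 fell and 0 rose. Hoxa11 stood at 3.14 and 5.49 CPM against 26.5 and 39.6 CPM and fell by 2.99 ± 0.29 (SE, edgeR adjusted p = 1.39e-22). Msx1 stood at 172 and 139 CPM against 349 and 376 CPM and fell by 1.19 ± 0.09 (SE, edgeR adjusted p = 9.32e-40). The groups did not overlap across the libraries for Emx2, Hoxa11 or Msx1. The share of all tested genes that also did not overlap is not given here. With so few libraries the lack of overlap adds no support beyond the edgeR test.

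Other lists also held genes called by edgeR at E9.5, where 3.26% of all tested genes rose and 3.25% fell. DESeq2 called only 36 and 33 genes over all, so these counts depend on the edgeR fit. Of 18 tested G2 and M phase genes 13 rose and 0 fell, and of 18 S phase genes 5 fell and 0 rose. Of 16 glycolysis genes 7 fell and 0 rose. In the BMP list 1 rose (Bmpr1b) and 8 fell of 20, in the WNT list 4 rose and 9 fell of 24, and in the FGF list 0 rose and 5 fell of 12. Scx rose by 2.33 ± 0.36 (SE, edgeR adjusted p = 1.01e-08), at 4.71 and 24.7 CPM in Sox9-high cells against 2.04 and 2.20 CPM in Sox9 0 cells. DESeq2 did not call it (adjusted p = 0.0833; 3.44e-08 to 1 over the alternatives). Of 14 connective tissue genes 6 rose and 1 fell.

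**Figure D5:**
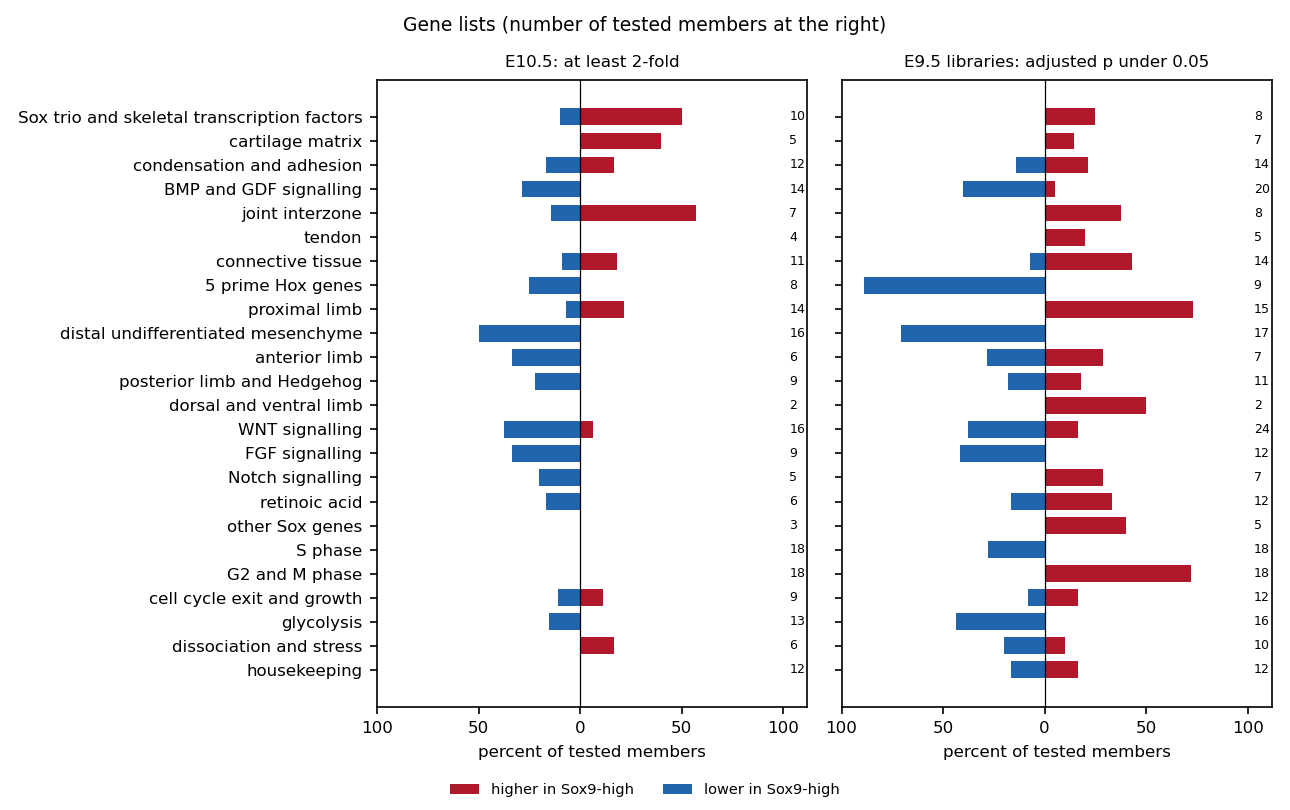
Share of the tested members of each gene list that were higher (red) or lower (blue) in Sox9-high cells, by at least 2-fold at E10.5 (left) and at an edgeR adjusted p under 0.05 in the E9.5 libraries (right), with the number of tested members at the right. Distal genes are lower in 8 of 16 at E10.5 and fell in 12 of 17 at E9.5, and proximal genes rose in 11 of 15 at E9.5.

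Markers of other cell types moved with the split in places, and their part in these results was not tested. At E10.5 the summed lists of muscle progenitors (6 genes), endothelium (6) and macrophages with megakaryocytes (6) stood at 7.66, 3.07 and 6.24 CPM in Sox9-high cells and 11.4, 2.92 and 4.88 CPM in Sox9 0 cells. Ectodermal markers (9) stood at 22.6 CPM against 13.6 CPM, and those of neural crest and Schwann precursors (7) at 8.77 CPM against 22.6 CPM. Erythroid markers (6) stood at 273 CPM against 282 CPM and somite markers (7 of 8 with a row, Uncx at 0 in both) at 141 CPM in both. Members of the somite list went opposite ways, with Tcf15 at 50.2 CPM against 24.7 CPM (ratio 2.03) and Pax1 at a ratio of 0.469. Cells with at least 2 UMIs of muscle, ectodermal, endothelial or blood cell markers were 4.24% of Sox9-high cells and 3.98% of Sox9 0 cells. At E9.5, beside the proximal genes that rose, somite and sclerotome markers stood at 34.9 CPM in B6_E9.5 and 65.9 CPM in 129_E9.5 in Sox9-high cells, against 14.0 and 18.9 CPM in Sox9 0 cells. Of them Meox1 and Tcf15 rose and Meox2 fell, while Pax9 was at 0 in Sox9-high cells of both libraries. Flank and mesothelium markers (7) stood at 212 and 119.9 CPM against 82.1 and 42.5 CPM, with Nr2f1 rising and the mesothelial marker Upk3b at 0 in Sox9-high cells of both.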

How the data were processed

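The authors deposited whole-number UMI counts without normalization, per the file headers, covering 15122 genes in 43950 cells of 501 to 38723 UMIs. The deposited cluster score is a number from 0 to 4 set by the authors, and stage and strain labels in the same table assigned cells to libraries. Cell Ranger 3 and the build mm10 are named in the submitters' processing notes. Cell filters and the clustering method are not given in the sources used here. Of the gene identifiers, 15119 were matched to a symbol. Barcodes of 1728 cells occur in more than 1 library (72 of the Sox9-high cells) and were kept apart by library.

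The members, lists and tests were chosen with earlier results of these data known. No further cell filter was applied and no doublet caller was run. Instead, possible doublets were left out as an alternative. UMIs were summed over matched cells (1 partner at E10.5, up to 5 at E9.5, within 5% of total UMIs) and divided by the sum of the group to give CPM, with exact Poisson intervals and exact conditional binomial intervals for ratios. Where 0 UMIs were counted, 3 UMIs set the limit. Intervals and limits are at 95% and cover counting error only. Genes were counted by size at E10.5: at least 2-fold, interval excluding 1, with minimums of 20 CPM and 20 UMIs for the higher group. At E9.5, edgeR 4.0.16 (R 4.3.3; TMM, filterByExpr, quasi-likelihood, Benjamini-Hochberg) was the main test and DESeq2 1.42.0 an alternative. The edgeR test and the count by size were run on simulated data. These had Poisson counts for the count by size and a spread common to all genes for edgeR. They thus do not show how either deals with spread that differs between genes. The genes named were the 15 largest and 15 smallest ratios, up to 4 members of each list with most UMIs, and the markers. Other genes, such as Cnmd, Col9a2, Lhx2, Pax1 and those of the Meis comparison, were chosen after their values were seen. A few of these genes are left unreported. Promoter windows and the microRNA came from RefSeq tables. Alternatives covered matching, thinning to 2000 UMIs, scaling, weighting of cells, the Sox9 threshold, low counts, the fold and the reference cells.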

Additional observations from a re-analysis of the deposited data

Results flagged for a closer look

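Osr1 and Sh3d19 had CPM ratios of Sox9-high over Sox9 0 cells on opposite sides of 1 at E10.5 and in both E9.5 libraries; the difference between stages was not tested. Osr1 had a ratio of 0.360 (0.322 to 0.401) in B6_E10.5, 1.36 (0.772 to 2.28) in B6_E9.5 and 2.999 (1.47 to 5.91) in 129_E9.5. At E9.5 it rested on 19 and 15 UMIs in Sox9-high cells. Sh3d19, which encodes an SH3-domain adaptor, had a ratio of 2.08 (1.74 to 2.49) in B6_E10.5, 0.905 (0.540 to 1.45) in B6_E9.5 and 0.918 (0.396 to 1.89) in 129_E9.5, so that its E9.5 intervals include 1.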

How the results depend on the processing

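At E10.5 the 42 higher and 52 lower genes stayed within 1.5 times under no matching (40 and 43), thinning (47 and 57), TMM scaling (41 and 52), means of per-cell CPM (39 and 48), a Sox9 threshold of 2 UMIs (34 and 37) and without possible doublets (42 and 54). With at least 5 Sox9 UMIs, 66 genes were higher and 65 lower. Without the low-count filter 368 were higher and 284 lower, at 1.5-fold 143 and 135, and with reference cells lacking Msx1, added after the data were seen, 26 and 24. All 42 higher genes kept their direction in each of these settings, and all 52 lower genes did in each but the last (47 of 52). The settings without the low-count filter and at 1.5-fold used the same ratios, so the direction there was fixed in advance. All settings kept the same library and a split on Sox9.

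At E9.5 the 328 genes that rose and 327 that fell were 36 and 33 with DESeq2, 189 and 170 with RLE size factors and 45 and 44 after thinning, which lowers the counts. Without the library term 0 and 0 were called (113 and 66 at an unadjusted p under 0.05; DESeq2 with the term called 36 and 33). With all 3 libraries 435 rose and 675 fell, and 6 named genes that had not passed the test turned direction and passed it: Pmp22 (1.47), Rhoj (1.51), Sox6 (0.90), Nrp2 (-0.98), Osr1 (-1.04) and Nfia (-0.84, log2 changes). Without matching Actb turned to a log2 change of -0.048. The cause was not tested. The E9.5 fit is paired by library through its library term. No replicate numbers are given, so no pairing beyond that term was made. Leaving out an E9.5 library leaves no residual degrees of freedom, so it gave no test. Depth limits low genes most: the E9.5 sums held 21 and 22 Col2a1 UMIs in Sox9-high cells.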
